A study of Arabidopsis thaliana with 6 samples.

Results

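The genes described here are 41 nuclear genes of photosynthesis, known for their high activity in green tissue. They comprise 4 *LHCA* and 14 *LHCB* genes of the light-harvesting antennae, 5 genes of photosystem II (*PSB*), 9 of photosystem I (*PSA*) and both plastocyanin genes (*PETE*). The others are 4 genes of the small subunit of Rubisco (*RBCS*), Rubisco activase (*RCA*) and 2 genes of the chloroplast glyceraldehyde-3-phosphate dehydrogenase (*GAPA1* and *GAPB*). All 41 were taken by their AGI codes from a list, not by a rule on measured values, and are 41 of 33318 named genes. The list was chosen with earlier results of these data known. Transcripts were measured by RNA sequencing in second internodes of flowering stems of Arabidopsis plants (Col-0 background) that carry *pPXY:GR-ARF5∆III/IV*. In these plants the *PXY* promoter, active in cambium stem cells, drives the auxin response factor ARF5 (MONOPTEROS) without the domains through which AUX/IAA repressors bind it. A glucocorticoid receptor domain fused to it admits the protein to the nucleus when dexamethasone (Dex) is given. Stems of plants 15 to 20 cm tall were dipped into 15 µM Dex or into a mock solution and harvested 3 h later, with 3 libraries in each group, all 6 of them from plants with the transgene. The methods name 3 plants for each replicate in the section on RNA preparation, whereas the deposited design note has RNA of 3 samples pooled, so it is not stated how many plants stand behind a library. Plants without the transgene were not analysed here, and an effect of Dex itself cannot be told apart from that of the ARF5 protein. An internode holds epidermis, green cortex, starch sheath, phloem, cambium, xylem and pith, and the counts do not show in which cells a transcript was made. For the same reason, fewer green cells and less RNA per green cell cannot be told apart.

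In the chloroplast, antenna proteins that bind chlorophyll pass light energy to photosystem II and photosystem I, and electrons travel from water through both photosystems, with plastocyanin as the mobile copper protein that feeds photosystem I. The ATP and NADPH made on the way drive the Calvin cycle, in which Rubisco fixes carbon dioxide and glyceraldehyde-3-phosphate dehydrogenase uses the NADPH. Many subunits are encoded in the nucleus and imported into the chloroplast, and their genes are known for abundant mRNA and for joint control by light, the circadian clock and the state of the plastid. In a young stem, green cortex cells below the epidermis carry out this work, whereas the *PXY* promoter is known from the cambium.

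Several members are near-identical copies, which bears on how a short read can be placed. The coding sequences of *RBCS1B* (AT5G38430), *RBCS2B* (AT5G38420) and *RBCS3B* (AT5G38410), neighbours on chromosome 5, have 546 bases each, of which *RBCS1B* and *RBCS2B* differ at 15 and *RBCS1B* and *RBCS3B* at 18. The reads were 50 bases long. The following stretches of that length are coding bases 74 to 123 (TAIR10.1, minus strand, RefSeq annotation). Among stretches unbroken by an intron, they hold the most differences from *RBCS1B*, marked by capitals. A read of exactly this stretch tells these copies apart. *RBCS2B* differs from *RBCS1B* at 2 bases near its start, so a read that begins further on may fit both.
RBCS1B, chr5:15385033-15385082: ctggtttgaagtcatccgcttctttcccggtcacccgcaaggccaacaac
RBCS2B, chr5:15381856-15381905: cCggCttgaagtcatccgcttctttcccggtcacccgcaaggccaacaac
RBCS3B, chr5:15378184-15378233: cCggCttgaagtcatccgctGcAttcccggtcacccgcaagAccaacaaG
Coding bases 361 to 410 are the same in these 3 genes, so a read from this stretch fits each of them.
RBCS1B, RBCS2B and RBCS3B, in RBCS1B at chr5:15384486-15384535: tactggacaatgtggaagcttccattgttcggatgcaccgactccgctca

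The same holds for *LHCB1.1* (AT1G29920), *LHCB1.2* (AT1G29910) and *LHCB1.3* (AT1G29930) on chromosome 1, whose 804 coding bases are 95.6% to 96.4% identical, and for *LHCB2.1* (AT2G05100) and *LHCB2.2* (AT2G05070), with 27 differences in 798 bases. Among stretches unbroken by an intron, coding bases 215 to 264 of these *LHCB1* genes hold the most differences from *LHCB1.1*, marked by capitals.
LHCB1.1, chr1:10475629-10475678, minus strand: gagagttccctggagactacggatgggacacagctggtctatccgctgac
LHCB1.2, chr1:10472983-10473032, minus strand: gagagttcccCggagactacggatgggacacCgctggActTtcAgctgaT
LHCB1.3, chr1:10478285-10478334, plus strand: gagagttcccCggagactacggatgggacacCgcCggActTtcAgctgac
In the tables, 11 of the 41 members had under 99% of their reads placed uniquely. They were *LHCA2* (88.2%), the 5 *LHCB1* genes (75.3% to 86.1%), *LHCB2.1* (65.3%), *LHCB2.2* (64.2%), *RBCS1B* (59.5%), *RBCS2B* (68.7%) and *RBCS3B* (74.3%). Levels of these 11 genes are uncertain to the extent that shared reads were divided among copies. In the annotation, 15 members also overlap another gene. The overlapping gene had many reads beside *PSAN* (78.6% of the reads of *PSAN*) and *LHCB2.3* (61.1%), both on the other strand, and beside *PSAD2* (23.6%, same strand) and *LHCB4.2* (21.7%, other strand). The libraries marked the strand, but whether it was used in counting is not stated.

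The 250 bases before the annotated gene start were searched on both strands for 8 short motifs known from light-, clock- and auxin-regulated plant genes. The 4 promoters shown here belong to the 2 members with the largest and the 1 with the smallest fitted change and to the member with the lowest adjusted p, and were chosen after their values were seen (TAIR10.1, RefSeq annotation, capitals at motif matches).
LHCB2.3 (AT3G27690), chr3:10255656-10255905, plus strand: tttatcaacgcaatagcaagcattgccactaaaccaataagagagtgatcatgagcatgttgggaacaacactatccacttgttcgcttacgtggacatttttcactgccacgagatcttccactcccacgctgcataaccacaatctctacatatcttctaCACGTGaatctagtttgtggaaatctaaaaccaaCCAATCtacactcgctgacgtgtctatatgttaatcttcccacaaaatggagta
RBCS2B (AT5G38420), chr5:15382072-15382321, minus strand: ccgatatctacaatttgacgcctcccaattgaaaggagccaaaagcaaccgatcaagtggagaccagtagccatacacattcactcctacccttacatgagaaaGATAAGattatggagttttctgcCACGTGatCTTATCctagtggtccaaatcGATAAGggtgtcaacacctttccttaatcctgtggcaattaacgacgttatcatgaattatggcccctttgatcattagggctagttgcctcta
LHCA4 (AT3G47470), chr3:17495034-17495283, minus strand: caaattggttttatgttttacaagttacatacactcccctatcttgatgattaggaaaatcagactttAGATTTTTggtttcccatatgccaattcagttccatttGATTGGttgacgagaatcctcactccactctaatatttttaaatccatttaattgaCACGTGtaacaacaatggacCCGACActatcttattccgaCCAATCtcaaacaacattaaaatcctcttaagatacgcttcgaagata
PSAD1 (AT4G02770), chr4:1230165-1230414, minus strand: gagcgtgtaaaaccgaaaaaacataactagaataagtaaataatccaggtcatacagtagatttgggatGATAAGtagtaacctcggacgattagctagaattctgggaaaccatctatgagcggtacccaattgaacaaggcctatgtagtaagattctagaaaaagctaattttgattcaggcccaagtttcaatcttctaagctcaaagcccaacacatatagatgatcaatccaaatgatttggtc
*RBCS2B* held a G-box (CACGTG), the core bound by bHLH and bZIP factors of the light response, 123 bases before the start between I-boxes (GATAAG, a motif known from *RBCS* promoters) at 146 and 115 bases, with a further I-box at 94. *LHCB2.3* held a G-box at 88 bases and the motif CCAATC, of the type linked to GLK factors, at 54. *LHCA4* held a G-box at 88 bases, CCAATC at 144 and 48, the CCA1 site (AAAAATCT, bound by a clock factor) at 182 and the strong form of the auxin response element (TGTCGG) at 68. *PSAD1* held an I-box at 181 bases.
Over the members, a G-box was present in 7 of 41 promoters against 6.5% of 27443 promoters of the genome, an I-box in 12 against 12.3%, CCAATC in 13 against 10.2% and the CCA1 site in 4 against 6.7%. The auxin response element TGTCTC, to which factors of the ARF5 family bind, was found in 5 of 41 (12.2%) against 10.9%, and its strong form TGTCGG in *LHCA4* alone against 4.2%. The CCA1 site variant (AACAATCT) and the evening element (AAAATATCT) were found in 0 of 41 against 1.8% and 2.4%. In the 500 bases before the coding start, a window added after the data were seen, the counts were 18 for the G-box (9.3% of all genes), 32 for the I-box (23.5%), 25 for CCAATC (21.2%), 10 for the CCA1 site (13.2%), 1 for its variant (4.4%), 0 for the evening element (4.0%), 7 for TGTCTC (24.9%) and 2 for TGTCGG (8.0%). These are matches of letters, not sites at which binding was measured.

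Gene reads numbered 22871927 to 32099136 in a library, of which the members took 573563 to 1188084, so counting error was small beside the differences between libraries. Levels are in CPM, the counts divided by the TMM-adjusted library size, and per transcript length as the authors' RPKM. In a principal component analysis over all tested genes, mock replicate 2 stood apart. On the first component (49.4% of the variance) its value was −9.8, against −50.4 and −50.6 for the other mock libraries and 30.1 to 44.2 for Dex. On the second (20.6%) it was −54.1, against −2.2 to 21.5 for the others. It is therefore given apart from the other mock libraries wherever single libraries are listed. Mock means ± SD and the ranges of marker sums include it.

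The members were abundant in mock replicates 1 and 3 and less so in the other 4 libraries. Of all gene reads, they took 5.19% in mock replicate 1 and 4.91% in mock replicate 3, but 2.92% in mock replicate 2. The shares were 2.48%, 3.35% and 3.16% in Dex replicates 1, 2 and 3 (95% Wilson intervals of at most 0.0091 percentage points to either side, counting error only). The mean was 4.34% ± 1.24 in mock and 2.996% ± 0.456 in Dex (SD, n = 3 each), and the groups overlapped through mock replicate 2 alone.

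**Figure D1:**
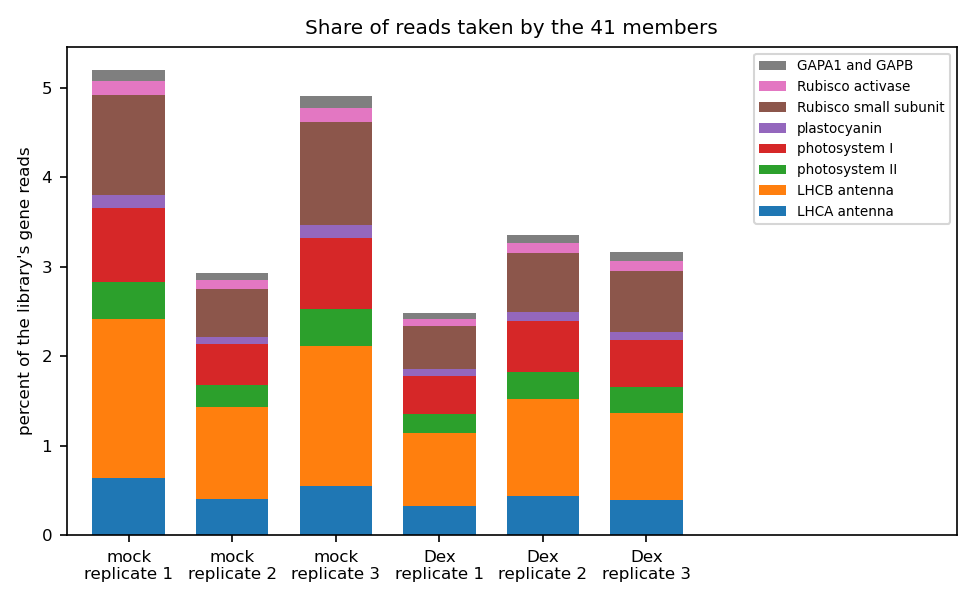
Share of each library's gene reads (percent, vertical axis) taken by the 41 members in 3 mock and 3 Dex libraries, stacked by family. Mock replicates 1 and 3 stand at 5.19% and 4.91%, and mock replicate 2 at 2.92%, between Dex replicate 1 at 2.48% and Dex replicate 3 at 3.16%.

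In 41 of 41 members, mock replicates 1 and 3 were the 2 libraries of the highest level, an order that 16.7% of all tested genes had. The order was not particular to the members. Of the lists described below, 21 of 23 other photosystem and electron transport genes and 14 of 16 other Calvin cycle genes had it. So did 23 of 25 chlorophyll synthesis genes and 8 of 19 regulators. Mock replicate 2 lay within the range of the Dex libraries in 35 members (38.4% of all tested genes), above it in *LHCA4*, *LHCB1.3* and *LHCB2.2*, and below it in *LHCB2.3*, *RBCS1B* and *PSAH2*. Dex replicate 1 was the lowest library in 38 of 41 members, against 20.6% of all tested genes, and in the other 3 mock replicate 2 was the lowest. Among markers of other tissues, Dex replicate 1 was lowest in 5 of 5 tested epidermis and 5 of 5 xylem genes. It was lowest in 0 of the guard cell, starch sheath, cambium and phloem markers. Relative to each gene's mean over the 6 libraries on the log2 scale, mock replicates 1 and 3 had median members of 0.59 and 0.50, and mock replicate 2 of −0.31. In Dex replicates 1, 2 and 3 the median was −0.57, −0.08 and −0.15. The median of all tested genes stayed within −0.01 to 0.01, which the TMM adjustment of library size largely sets. As a share of the mean of mock replicates 1 and 3, the median member reached 54.9% in mock replicate 2 (18.6% for *LHCB2.3* to 69.0% for *LHCB1.5*), 46.7% in Dex replicate 1, 64.7% in Dex replicate 2 and 61.7% in Dex replicate 3.

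**Figure D2:**
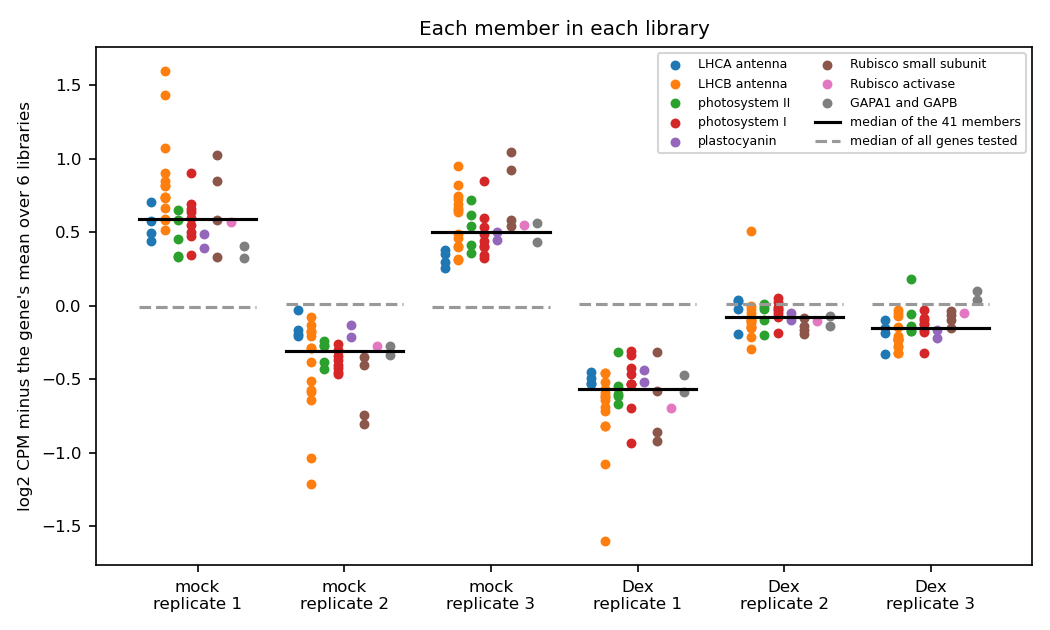
Level of each member (1 point) in each library as log2 CPM minus the gene's mean over the 6 libraries, coloured by family, with the median of the members (black line) and of all tested genes (dashed line). The median member lies at 0.59 and 0.50 in mock replicates 1 and 3 and at −0.57 to −0.08 in the other 4 libraries.

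Whether the members responded to Dex was tested with edgeR's quasi-likelihood test on the counts of all 19347 genes that passed a filter on low counts, with Benjamini-Hochberg adjustment over all of them and a threshold of 0.05. All 41 members passed the filter. At this threshold, 0 of 41 members fell, where 2.07% of all tested genes did, and 0 rose, where 4.63% did (adjusted p from edgeR 0.0618 to 0.459). All 41 fitted values lay below 0, as for 50.8% of all tested genes, with a median log2 fold change of −0.57 (−0.01 for all tested genes) and a range of −1.11 for *LHCB2.3* to −0.27 for *PSAD1*. The 41 values are not independent of each other, since the members share the order of libraries. At an unadjusted p under 0.05, edgeR gave 16 members on the lower side (10.2% of all tested genes) and 0 on the higher side (2408 of 19347 tested genes). These are the members whose 95% interval lay wholly below 0. DESeq2 called 8 members lower (4.9% of all tested genes), edgeR's exact test 5 (4.4%; 30 at an unadjusted p, where 10.2% of all tested genes passed), and limma-voom 0. The genes called by DESeq2 were *LHCA4*, *LHCB1.2*, *LHCB1.3*, *LHCB1.5*, *LHCB2.1*, *LHCB2.2*, *LHCB5* and *PSBO2*, and those of the exact test were *LHCA4*, *LHCB1.3*, *LHCB1.5*, *LHCB2.1* and *LHCB2.2*. In 3 of 41 members, *LHCA4*, *LHCB1.3* and *LHCB2.2*, each mock library was above each Dex library, a share below the 12.1% of all tested genes with that order.
The result turned on mock replicate 2. Without it, 39 of 41 members fell (edgeR, adjusted p = 0.00114 for *LHCB2.3* to 0.0495 for *PSAL*), against 7.96% of all tested genes that fell and 9.79% that rose in that fit. The median log2 fold change was then −0.79, with a range of −1.57 to −0.45. This fit keeps mock replicates 1 and 3, the highest libraries in all 41 members, so a fall was largely set by that order. Its p-values are no separate evidence of a fall. The members not called were *GAPB* (edgeR, adjusted p = 0.0509) and *LHCB1.4* (edgeR, adjusted p = 0.0589). Both passed when uniquely placed reads alone were counted without mock replicate 2, an alternative added after the data were seen. It called 41 of 41 members and, over all genes and in either direction, 3487 genes, where the main test called 1295. With mock replicate 1, mock replicate 3 or any 1 Dex library left out instead, 0 members passed (edgeR, lowest adjusted p = 0.126 to 0.214), and all fitted values stayed below 0 (medians −0.66 to −0.42). The spread within groups was wide for these genes. The median SD of log2 CPM was 0.50 among the mock libraries and 0.277 among the Dex libraries, against 0.204 and 0.154 over all tested genes.

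**Figure D3:**
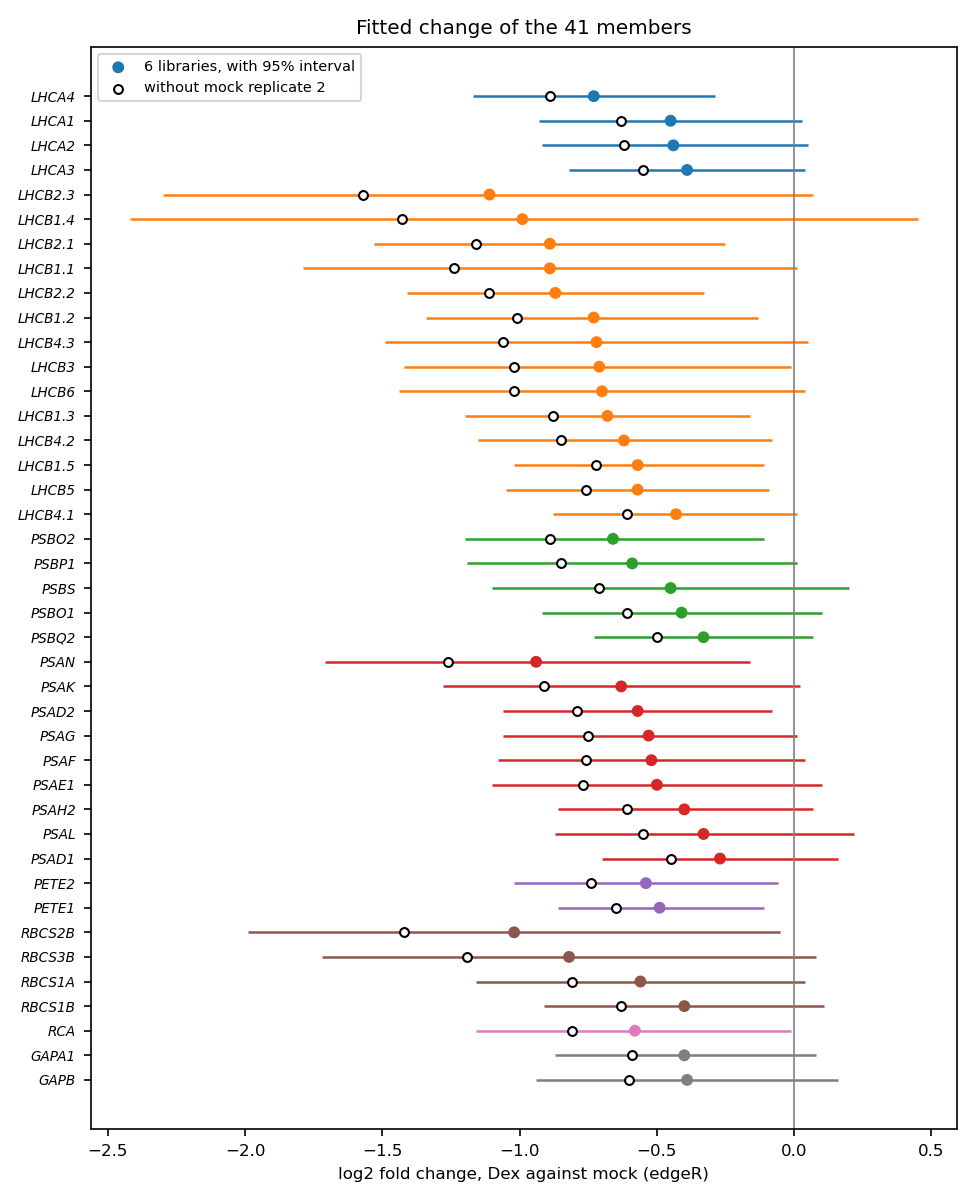
Fitted log2 fold change (Dex against mock, edgeR, horizontal axis) of each member over all 6 libraries (filled point, 95% interval as a line) and without mock replicate 2 (open point). All 41 filled points lie between −1.11 and −0.27, 16 of the intervals end below 0, and the open points lie between −1.57 and −0.45.

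The *LHCA* genes encode the antenna proteins of photosystem I, which form a belt on one side of its core. *LHCA4* (AT3G47470) stood at 1782, 1073 and 1418 CPM in mock replicates 1, 2 and 3 and at 754, 957 and 872 CPM in Dex replicates 1, 2 and 3. Mock replicate 2 was the lowest mock library and still above each Dex library, so the groups did not overlap. The log2 fold change was −0.73 (95% interval −1.17 to −0.29). Its adjusted p was the lowest of the members (edgeR, 0.0618; 0.00472 without mock replicate 2 and 0.00153 to 0.214 over the alternatives). *LHCA2* (AT3G61470), the member of this family with the highest RPKM (1090 on average over the 6 libraries), stood at 1663, 1022 and 1505 CPM in mock and at 819, 1214 and 1065 CPM in Dex. Its mock replicate 2 lay among the Dex libraries (log2 fold change −0.44, 95% interval −0.92 to 0.05; edgeR, adjusted p = 0.266). *LHCA1* (AT3G54890) had a mean of 1026 ± 267 CPM in mock and 752 ± 134 CPM in Dex, and *LHCA3* (AT1G61520) 1540 ± 319 and 1175 ± 177 CPM (SD, n = 3 each). *LHCA3* had the narrowest range of the family, 1.85-fold from the lowest to the highest library.

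The *LHCB* genes encode the antenna of photosystem II: *LHCB1*, *LHCB2* and *LHCB3* make up the trimers of LHCII, and *LHCB4*, *LHCB5* and *LHCB6* the minor antennae CP29, CP26 and CP24 next to the core. Their median log2 fold change was −0.72, the lowest of the families with more than 1 member, and −1.02 without mock replicate 2, where 13 of 14 fell. They held 8 of the 16 members with an unadjusted p under 0.05. *LHCB1.3* (AT1G29930) was the most abundant, at an average of 3998 RPKM, and stood at 6357, 3663 and 5521 CPM in mock and at 2620, 3636 and 3422 CPM in Dex. Mock replicate 2 was above Dex replicate 2 by a small margin, so the groups touched without overlapping (log2 fold change −0.68, 95% interval −1.20 to −0.16; edgeR, adjusted p = 0.117). *LHCB2.3* (AT3G27690), the least abundant member by RPKM (48.4), had the largest fitted change: 101.8, 16.2 and 72.8 CPM in mock against 21.3, 35.7 and 31.0 CPM in Dex. Here mock replicate 2 was the lowest of all 6 libraries, and the 95% interval of the log2 fold change of −1.11 ran from −2.30 to 0.07 (edgeR, adjusted p = 0.246, and 0.000700 to 0.609 over the alternatives). *LHCB1.4* (AT2G34430) varied most between libraries, with 416, 66.9 and 230 CPM in mock and 45.2, 195 and 119 CPM in Dex, a 9.21-fold range from the lowest to the highest. It was low in mock replicate 2 and Dex replicate 1 alike, and its interval (−2.42 to 0.45) was the widest of the members.
*LHCB2.2* (AT2G05070), with groups that did not overlap, stood at 377, 178 and 283 CPM in mock and at 134, 165 and 161 CPM in Dex (log2 fold change −0.87, 95% interval −1.41 to −0.33; edgeR, adjusted p = 0.0669). Its near-copy *LHCB2.1* (AT2G05100) stood at 413, 188 and 370 CPM in mock and at 130, 197 and 196 CPM in Dex, where mock replicate 2 fell within the Dex range. Of the reads of this pair, 64.2% and 65.3% were unique. *LHCB1.5* (AT2G34420), second to *LHCB1.3* in RPKM within the family, had means of 3956 ± 888 and 2674 ± 393 CPM in mock and Dex (SD, n = 3 each). *LHCB1.1* (AT1G29920) had 129 ± 64.5 and 69.6 ± 24.5 CPM, and *LHCB1.2* (AT1G29910) 318 ± 117 and 191 ± 31.7 CPM. *LHCB3* (AT5G54270), the third LHCII protein, stood at 890 ± 374 and 543 ± 113 CPM. Of the minor antennae, *LHCB5* (AT4G10340) stood at 1306 ± 335 and 879 ± 146 CPM, and *LHCB6* (AT1G15820) at 576 ± 252 and 355 ± 82.0 CPM. Of the CP29 genes, *LHCB4.1* (AT5G01530) stood at 1014 ± 246 and 751 ± 108 CPM, *LHCB4.2* (AT3G08940) at 378 ± 127 and 246 ± 36.1 CPM and *LHCB4.3* (AT2G40100) at 107 ± 49.1 and 65.0 ± 14.9 CPM. In each of them the SD of the mock libraries was larger than that of the Dex libraries, and the fitted log2 fold changes ran from −0.43 to −0.72.

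**Figure D4:**
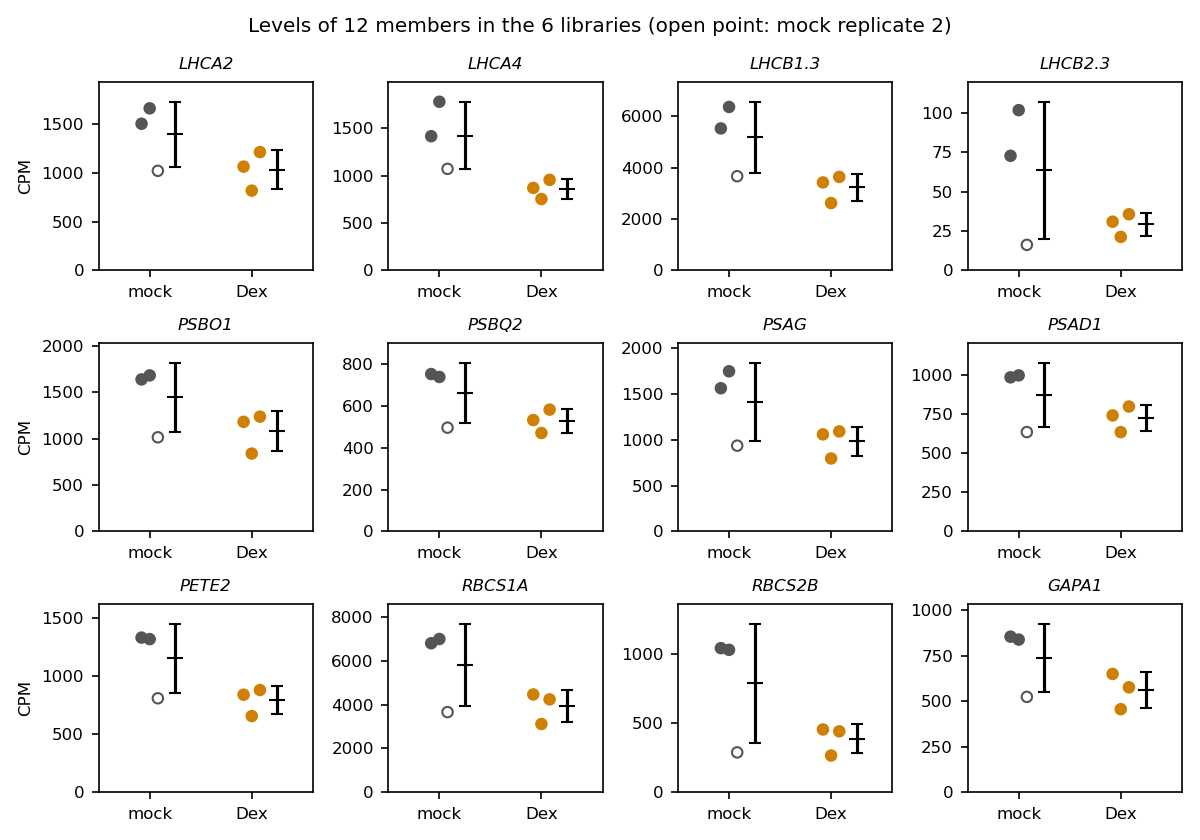
Levels in CPM (vertical axis, from 0) of 12 members in the mock libraries (grey, with mock replicate 2 as an open circle) and the Dex libraries (orange), with mean ± SD beside each group (n = 3). In each panel the grey filled points are the highest, and the open point lies among the Dex points except in *LHCA4* and *LHCB1.3*, where it is just above them, and *LHCB2.3*, where it is below them.

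Among photosystem II genes, *PSBO*, *PSBP* and *PSBQ* encode extrinsic proteins that hold the water-splitting manganese cluster in place, and *PSBS* a sensor of lumen acidity that dissipates excess light. *PSBO1* (AT5G66570), the most abundant of them at an average of 1010 RPKM, stood at 1684, 1016 and 1641 CPM in mock and at 840, 1239 and 1183 CPM in Dex (log2 fold change −0.41, 95% interval −0.92 to 0.10; edgeR, adjusted p = 0.317). *PSBQ2* (AT4G05180), one of the 2 smallest fitted changes, stood at 738, 496 and 752 CPM in mock and at 470, 582 and 532 CPM in Dex (log2 fold change −0.33, 95% interval −0.73 to 0.07; edgeR, adjusted p = 0.311). In both, mock replicate 2 and Dex replicate 1 were the lowest libraries. *PSBO2* (AT3G50820) had 221 ± 67.9 and 140 ± 28.1 CPM in mock and Dex, *PSBP1* (AT1G06680) 914 ± 314 and 608 ± 123 CPM, and *PSBS* (AT1G44575) 427 ± 159 and 312 ± 84.4 CPM (SD, n = 3 each). The interval of *PSBO2* alone lay wholly below 0 (log2 fold change −0.66, −1.20 to −0.11).

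The *PSA* genes encode subunits of photosystem I. Of these, PSAD and PSAE form the docking site for ferredoxin on the stroma side, PSAF and PSAN act on the plastocyanin side, PSAG and PSAK sit at the edge towards the antenna, and PSAH and PSAL take part in binding LHCII. *PSAG* (AT1G55670), the most abundant at an average of 1528 RPKM, stood at 1749, 937 and 1564 CPM in mock and at 797, 1092 and 1060 CPM in Dex (log2 fold change −0.53, 95% interval −1.06 to 0.01; edgeR, adjusted p = 0.225). *PSAD1* (AT4G02770) had the smallest fitted change of the 41: 996, 634 and 983 CPM in mock against 634, 797 and 740 CPM in Dex. Mock replicate 2 and Dex replicate 1 were level there, and the range over the libraries was 1.57-fold, the narrowest of the members (log2 fold change −0.27, 95% interval −0.70 to 0.16; edgeR, adjusted p = 0.442). *PSAN* (AT5G64040) stood at 468, 181 and 452 CPM in mock and at 131, 221 and 223 CPM in Dex, the lowest fitted change of the family (log2 fold change −0.94, 95% interval −1.71 to −0.16; edgeR, adjusted p = 0.146). Beside *PSAN*, an overlapping gene on the other strand had reads, and its part in the counts was not tested. *PSAD2* (AT1G03130) had 299 ± 90.4 and 201 ± 27.3 CPM in mock and Dex, *PSAE1* (AT4G28750) 576 ± 205 and 407 ± 74.3, and *PSAF* (AT1G31330) 1302 ± 416 and 908 ± 157 CPM. *PSAH2* (AT1G52230) had 337 ± 95.3 and 256 ± 28.0, *PSAK* (AT1G30380) 723 ± 267 and 467 ± 105, and *PSAL* (AT4G12800) 1130 ± 342 and 901 ± 164 CPM (SD, n = 3 each). Of these, *PSAL* had the highest adjusted p of the members (edgeR, 0.459), and passed without mock replicate 2 (0.0495, and 0.0446 to 0.808 over the alternatives).

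Of the plastocyanin genes, *PETE2* (AT1G20340) was far more abundant than *PETE1* (AT1G76100), at an average of 1036 against 66.9 RPKM. *PETE2* stood at 1321, 811 and 1334 CPM in mock and at 658, 882 and 842 CPM in Dex (log2 fold change −0.54, 95% interval −1.02 to −0.06; edgeR, adjusted p = 0.168). *PETE1* stood at 67.3, 46.8 and 70.0 CPM in mock and at 37.8, 49.4 and 44.0 CPM in Dex (log2 fold change −0.49, 95% interval −0.86 to −0.11; edgeR, adjusted p = 0.121). Although the genes differed more than 10-fold in level, the libraries fell in nearly the same order in both, with mock replicate 2 inside the Dex range.

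For carbon fixation, *RBCS1A* (AT1G67090), the most abundant member of all at an average of 4721 RPKM, stood at 6984, 3656 and 6790 CPM in mock and at 3113, 4236 and 4459 CPM in Dex (log2 fold change −0.56, 95% interval −1.16 to 0.04; edgeR, adjusted p = 0.249). *RBCS2B* (AT5G38420) had the second largest fitted change of the 41, at 1031, 290 and 1043 CPM in mock and 267, 442 and 455 CPM in Dex (log2 fold change −1.02, 95% interval −1.99 to −0.05; edgeR, adjusted p = 0.198, and 0.00109 to 0.462 over the alternatives). Mock replicates 1 and 3 agreed closely in *RBCS2B*, and mock replicate 2 was far below both. *RBCS3B* (AT5G38410) stood at 2897, 962 and 3053 CPM in mock and at 887, 1519 and 1506 CPM in Dex. *RBCS1B* (AT5G38430) stood at 659, 396 and 784 CPM and at 419, 467 and 509 CPM. *RCA* (AT2G39730), which frees the active site of Rubisco from bound sugar phosphates, stood at 1636, 909 and 1611 CPM in mock and at 681, 1025 and 1065 CPM in Dex (log2 fold change −0.58, 95% interval −1.16 to −0.01; edgeR, adjusted p = 0.214). The order of the 6 libraries in *RCA* was that in *RBCS1A*. *GAPA1* (AT3G26650) stood at 838, 524 and 854 CPM in mock and at 456, 576 and 650 CPM in Dex (log2 fold change −0.40, 95% interval −0.87 to 0.08; edgeR, adjusted p = 0.300), and its partner *GAPB* (AT1G42970) at 386 ± 115 and 295 ± 68.7 CPM (SD, n = 3 each).

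Some copies within a family varied in ratio across libraries, and others varied little. *LHCB1.3* took 49.8% to 53.0% of the unique *LHCB1* reads in each library, and *LHCB2.1* 44.0% to 48.9% of the unique *LHCB2* reads. Counting uniquely placed reads, *RBCS2B* had 0.102, 0.0540 and 0.107 reads for each read of *RBCS1A* in mock replicates 1, 2 and 3 and 0.0599, 0.0737 and 0.0690 in Dex replicates 1, 2 and 3. The libraries poor in *RBCS* reads were thus also those in which *RBCS2B* made up less of the total. *RBCS3B* had 0.304, 0.194 and 0.340 reads for each of *RBCS1A* in mock and 0.217, 0.273 and 0.253 in Dex, in the same order. *RBCS1A* accounted for 68.4%, 76.2% and 65.9% of the unique *RBCS* reads in mock and for 73.5%, 70.7% and 72.1% in Dex. *LHCB2.3* had 0.382, 0.132 and 0.301 reads for each of *LHCB2.1* in mock and 0.244, 0.280 and 0.239 in Dex. For *PSBO2* and *PSBO1*, the ratio was 0.153, 0.141 and 0.161 in mock and 0.129 in each Dex library. For *PSAD2* and *PSAD1* it was 0.380, 0.317 and 0.323 in mock and 0.283, 0.291 and 0.260 in Dex. In these last pairs, each Dex library was below each mock library, mock replicate 2 included. The mean log2 ratios differed by −0.23 and −0.29 between Dex and mock, with an exact permutation p of 0.1 (two-sided, adjusted p = 0.3 over the 6 pairs tested), the smallest value that 3 against 3 libraries allow. For *RBCS2B*, *RBCS3B* and *LHCB2.3* and for *LHCB1.4* with *LHCB1.5*, the exact permutation p was 0.4 to 1.0 (adjusted p = 0.8 to 1.0).

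Reads in introns, which can come from RNA not yet spliced, were few. They amounted to 350 to 654 reads over all members in a library. Of the members' gene reads, these were 0.0484%, 0.0637% and 0.0461% in mock replicates 1, 2 and 3. In Dex replicates 1, 2 and 3 they were 0.0610%, 0.0631% and 0.0645%. Summed over the members, they stood at 25.96, 18.5 and 22.8 CPM in mock and at 14.6, 21.1 and 20.6 CPM in Dex, with mock replicate 2 and Dex replicate 1 again lowest.

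Other nuclear genes of the pathway were taken from lists written from general knowledge, with earlier results of these data known. Most of them lay on the same side of the fit, the regulators less uniformly, and few were called. Of 23 further genes of the photosystems and of electron transport, 0 passed in either direction, and the median log2 fold change was −0.39 with all 23 below 0. By mean CPM, which is not scaled to length, the highest was *PSBR* (AT1G79040), a small photosystem II protein near the water-splitting site, at 2146, 1590 and 1908 CPM in mock and 1309, 1611 and 1726 CPM in Dex (edgeR, adjusted p = 0.357). Second in CPM was *PSBW* (AT2G30570), which stabilizes photosystem II supercomplexes, at 1284, 665 and 1102 CPM and 538, 786 and 714 CPM (edgeR, adjusted p = 0.199). Of 16 Calvin cycle genes, 0 passed as well (median −0.40, with 15 of 16 below 0). The highest by mean CPM were the transketolase *TKL1* (AT3G60750), at 817, 613 and 828 CPM in mock and 546, 645 and 693 CPM in Dex (edgeR, adjusted p = 0.363), and *CP12-1* (AT2G47400), a linker of glyceraldehyde-3-phosphate dehydrogenase and phosphoribulokinase. *CP12-1* stood at 704, 561 and 655 CPM in mock and 427, 471 and 508 CPM in Dex, without overlap (edgeR, adjusted p = 0.0795). At an unadjusted p under 0.05, edgeR gave 5 of the 23 and 3 of the 16 genes as lower (10.2% of all tested genes). On the higher side it gave 1 gene, *FBA3*, which encodes an aldolase (2408 of 19347 tested genes were on that side).
Of 25 chlorophyll synthesis genes, 3 fell and 0 rose (median −0.38, all 25 below 0). Of all tested genes, 2.07% fell and 4.63% rose. *PORB* (AT4G27440), which reduces protochlorophyllide in the light, fell from 364, 245 and 301 CPM in mock to 181, 160 and 178 CPM in Dex (log2 fold change −0.81; edgeR, adjusted p = 0.0168). *CHLM* (AT4G25080), the methyltransferase of magnesium protoporphyrin, fell from 116, 77.7 and 99.1 to 46.3, 64.6 and 60.7 CPM (−0.77; edgeR, adjusted p = 0.0325). *HEMA1* (AT1G58290), glutamyl-tRNA reductase at the entry of the path, fell from 95.7, 65.7 and 106 to 56.4, 54.2 and 59.1 CPM (−0.66; edgeR, adjusted p = 0.0487). In these 3 genes mock replicate 2 was the lowest mock library and above each Dex library. The calls of *CHLM* and *HEMA1* ended when any 1 library other than mock replicate 2 was left out (edgeR, adjusted p = 0.0774 to 0.126 for *CHLM* and 0.129 to 0.170 for *HEMA1*), and that of *PORB* without mock replicate 1 or any 1 Dex library (edgeR, adjusted p = 0.0550 to 0.0849).
Of 19 regulators of photosynthesis genes, 1 fell and 0 rose, where 2.07% and 4.63% of all tested genes did. Their median log2 fold change was −0.11, with 13 of 19 below 0. The range was −0.71 for *PIF4* to 1.13 for the clock gene *LHY*. *PIF4* (AT2G43010), a bHLH factor of the light and temperature response, fell from 45.0, 48.4 and 36.9 CPM in mock to 27.0, 26.0 and 26.5 CPM in Dex (log2 fold change −0.71; edgeR, adjusted p = 0.0111), with mock replicate 2 the highest library. The call ended without Dex replicate 2 (edgeR, adjusted p = 0.0648) or Dex replicate 3 (0.0553). The regulator highest in mean CPM was *GUN1* (AT2G31400), which acts in signalling from plastid to nucleus, at 141, 129 and 153 CPM in mock and 129, 130 and 133 CPM in Dex (edgeR, adjusted p = 0.565). *GLK1* (AT2G20570), an activator of antenna and chlorophyll genes, followed at 71.7, 54.4 and 67.3 CPM and 46.9, 65.2 and 67.2 CPM (edgeR, adjusted p = 0.730). Without mock replicate 2, 19 of 23, 10 of 16, 18 of 25 and 4 of 19 genes of these lists fell, and 2 regulators, *PIF5* and *LHY*, rose. In that fit, 7.96% of all tested genes fell and 9.79% rose. The lists and the members overlap in function, and no list is independent of the order of libraries. The 13 genes of photosynthesis encoded in the plastid genome were not analysed here.

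**Figure D5:**
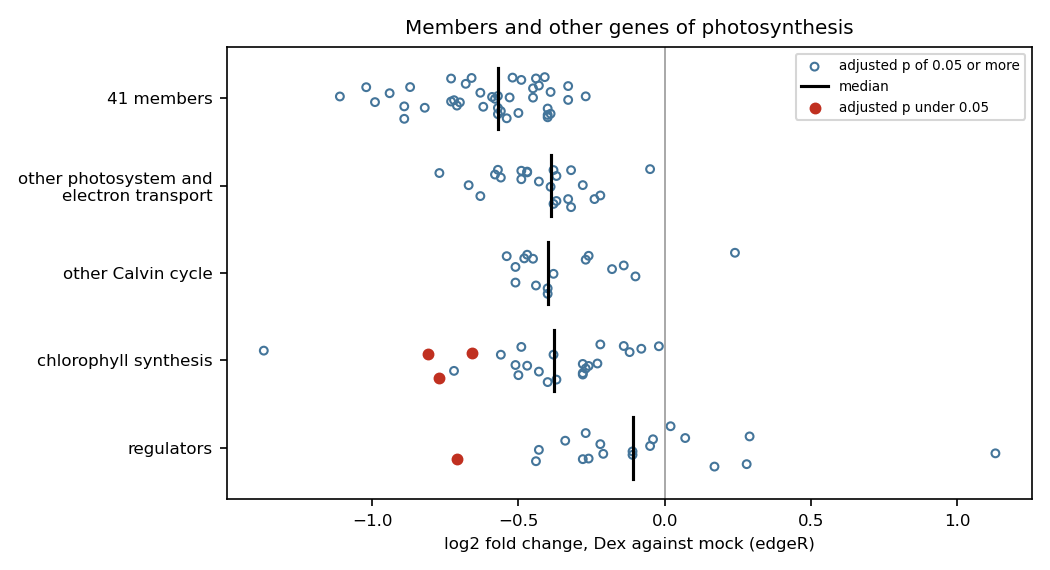
Fitted log2 fold change (Dex against mock, edgeR, horizontal axis) of the 41 members and of 4 lists of other photosynthesis genes, 1 point a gene, with the median as a line. Filled points passed an adjusted p of 0.05: 3 of 25 chlorophyll synthesis genes and 1 of 19 regulators, all on the lower side, and 0 of the members.

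Markers of the other tissues of the internode were read in the same way. The summed level of 6 epidermis markers was 900, 572 and 912 CPM in mock and 480, 657 and 637 CPM in Dex, with mock replicates 1 and 3 highest. That order of the sum rested on *CER1* (AT1G02205), an enzyme of wax alkane synthesis, at 307, 75.1 and 389 CPM in mock and 54.0, 138 and 105 CPM in Dex (edgeR, adjusted p = 0.168, with 0.00364 when mock replicate 2 was left out and 0.00244 to 0.416 over the alternatives). Without *CER1*, the remaining 5 markers summed to 593, 497 and 523 CPM in mock and to 426, 519 and 532 CPM in Dex, and the groups overlapped. The other epidermis markers were *ATML1*, *CER6*, *FDH* and *KCS1*, with log2 fold changes of −0.31 to −0.05 (edgeR, adjusted p = 0.162 to 0.825), and *PDF1*, at 0 in each library. Xylem markers summed to 4295 to 4862 CPM in mock and 3618 to 5012 CPM in Dex (5 genes), with 0 calls. Phloem markers summed to 346 to 390 and 341 to 345 CPM (4 genes), cambium markers to 337 to 440 and 339 to 415 CPM (4 genes) and starch sheath markers to 199 to 256 and 227 to 235 CPM (3 genes), with 0 calls in each. Guard cell markers summed to 40.3 to 48.5 CPM in mock and 52.6 to 70.4 CPM in Dex (4 genes). That difference rested on the potassium channel gene *KAT1* (AT5G46240), which rose from 29.3 ± 2.03 to 45.4 ± 7.14 CPM (SD, n = 3 each). Its call (edgeR, adjusted p = 0.0248) held with mock replicate 2 left out. It was lost in each of the remaining leave-out fits (edgeR, adjusted p = 0.0563 to 0.104). Mean levels in mock and Dex were 10.6 and 10.5 CPM for *FAMA*, 1.86 and 1.01 for *HT1*, and 2.95 and 3.22 for *MYB60*. Their log2 fold changes were −0.02, −0.88 and 0.12 (edgeR, adjusted p = 0.33 to 0.97). The part of tissue makeup in the members' order of libraries was not tested.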

How the data were processed

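Libraries marked for strand were sequenced as single reads of 50 bases. The authors aligned reads to TAIR10 (CLC Genomics Workbench). Their deposited tables give read counts of each gene as a whole, of its exons and introns and of unique reads, and RPKM values, which the authors computed from exon reads, exon length and library total; annotation release and use of strand are not given in the sources used here. Of 33323 entries, 5 without a name were left out (0.0803% to 0.0998% of reads), and 6118 had no exon length and no RPKM. Of the reads, 96.8% to 97.1% were unique.

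Whole-gene counts were tested with edgeR 4.0.16 (R 4.3.3; quasi-likelihood, TMM factors 0.969 to 1.039, filter at a count of 10 and a sum of 15), two-sided, Benjamini-Hochberg over 19347 genes. This replaces the test of the authors' methods, whose analogue, the exact test, is an alternative. Errors are SDs over 3 libraries; p-values measure the spread between these libraries. 95% intervals come from the fit. Ratios of copies were compared by exact permutation for 6 pairs out of a larger number possible, so their adjustment covers these pairs alone. The test was tried on simulated counts. Named genes were all 41 members, with full statistics for the 2 largest and 2 smallest fitted changes and the most abundant of each family by RPKM, and, for each other list, up to 4 that passed or the 2 of highest mean CPM; *LHCA4*, *LHCB1.4*, *LHCB2.1*, *LHCB2.2*, *PETE1*, *PSAN*, *PSBO2*, *CER1* and *KAT1* were singled out after their values were seen. The epidermis and guard cell markers beside *CER1* and *KAT1* were named to show the remainder of each sum. Members and lists were chosen with earlier results of these data known. Alternatives were DESeq2 1.42.0, limma-voom 3.58.1, exact tests, RLE factors, library totals, no filter, unique or exon reads, log2 RPKM with a pseudocount of 1 or 0.1, a replicate block and leaving out each library. Sequences and overlaps are from RefSeq TAIR10.1; deposited tables hold no coordinates. Series tables held 0 columns of other samples.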

Additional observations from a re-analysis of the deposited data

How the results depend on the processing

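The number of members that fell was 0 in the main test, 8 with DESeq2, 5 with the exact test, 30 and 16 at unadjusted p (exact test and quasi-likelihood), 2 without the filter on low counts (*LHCA4* and *LHCB2.2*), 0 to 39 with 1 library left out and 41 with unique reads without mock replicate 2; it was 0 under the other alternatives, and none gave a member that rose. Over all genes, the 1295 calls became 2347 (DESeq2), 2183 and 4314 (exact test, adjusted and unadjusted), 4377 (unadjusted), 632 and 607 (log2 RPKM, pseudocount 1 and 0.1), 407 to 3477 with 1 library left out and 3487 with unique reads without mock replicate 2. Of the other photosynthesis genes, 4 fell in the main test, 10 with DESeq2, 8 and 27 with the exact test, 20 unadjusted, 0 and 0 with log2 RPKM, 0 to 51 with 1 library left out and 52 with unique reads without mock replicate 2. The number that rose was 0, but 1 with DESeq2, limma-voom, both exact tests, no filter, unique reads and exon reads, 2 unadjusted, 0 to 2 with 1 library left out and 2 with unique reads without mock replicate 2. *GLK1* lay at −0.22 to 0.04 with 1 library left out and turned to 0.04 without Dex replicate 1.

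Deviations from the group means correlated at −0.104, 0 and 0.209 between same-numbered libraries, and at −0.242 to 0.22 between the others. With 3 libraries a group, these values cannot decide whether the numbers pair the libraries. The main test did not pair them. The replicate block gave 0 members lower, a median of −0.55, 874 calls over all genes, and 2 other photosynthesis genes lower and 1 higher.

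With 3 libraries a group, the main test did not separate a fall of about the median size in the members from the spread. DESeq2 and the exact test called *LHCB1.5* at a log2 fold change of −0.57 (adjusted p = 0.018 and 0.047), whereas limma-voom called 0 members. Mock replicate 2 lay among the Dex libraries, and the cause of its position was not tested. Depth did not limit the members (417 or more reads each in every library), but division of shared reads limits the *LHCB1*, *LHCB2* and *RBCS* copies.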
